A study of Homo sapiens with 12 samples.

Results

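The genes described here are 39 WNT ligands, receptors and pathway components, a set listed by symbol and looked up by Entrez gene ID in a table of read counts for 23459 genes. All 39 had a row in that table, and 35 of them passed the filter on low counts, among 14775 genes tested. The filter left out 4 ligands that were scarce in every library. They are WNT3A (0 to 3 counts a library), WNT4 (0 to 5 counts), WNT7A (2 to 24 counts) and WNT10A (5 to 19 counts), and they get no test.

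WNT proteins are secreted, lipid-modified signals that bind Frizzled receptors on neighbouring cells. In the canonical branch a Frizzled receptor and LRP5 or LRP6 stop the APC, AXIN and GSK3B complex from marking β-catenin for destruction, and β-catenin then acts in the nucleus with TCF and LEF factors. In the β-catenin-independent branch, of which WNT5A is the best known ligand, ROR1, ROR2 and RYK serve as co-receptors and the outcome is often a change in cell shape or movement. WNT signalling helps mammary epithelial cells to grow and to keep their stem cells, and secreted DKK and SFRP proteins hold it in check.

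RNA-seq was made from MCF10A, an established line of non-tumorigenic human breast epithelial cells. All 12 libraries come from cells that carry a doxycycline-inducible allele of YAP5SA, a YAP mutant that the Hippo kinases cannot inactivate. The 4 groups of 3 libraries are vector EtOH (empty vector, solvent), vector Dox (empty vector, doxycycline at 100 ng/ml), JUN EtOH (JUN overexpression vector, solvent) and JUN Dox (JUN overexpression vector, doxycycline). The study asked how JUN changes the response to YAP. Each library has 1 number of its own within its group, and the length of the treatment is not given in the labels. No group here received doxycycline without the YAP5SA allele, so an effect of YAP5SA and one of doxycycline itself cannot be told apart. Ethanol was given to both uninduced groups.

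Libraries held 18594867 to 28993487 counts, of which 34107 to 49883 lay on the 39 genes, or 0.153% to 0.204%. Levels are given as counts per 1e+06 (CPM), scaled by TMM, with the SD over the 3 libraries of a group, and 3 counts correspond to 0.107 to 0.150 CPM. JUN was at 47.6 ± 10.5 CPM in vector EtOH and at 1278 ± 187 CPM in JUN EtOH cells (log2 fold change 4.75, SE 0.18, edgeR adjusted p = 1.74e-10), and it also rose on induction in vector cells, to 190 ± 4.15 CPM. In JUN Dox cells JUN was at 1248 ± 92.2 CPM, with no call on induction. The excess of JUN in JUN over vector cells was therefore smaller with induction (log2 2.72, SE 0.16) than without it. The interaction of JUN itself was -2.03 (edgeR adjusted p = 0.000133). YAP1 counts were at 179 ± 10.5 CPM in vector EtOH and at 236 ± 31.5 CPM in vector Dox cells (log2 0.40, SE 0.16, adjusted p = 0.0819). In JUN cells YAP1 was at 234 ± 20.9 CPM with EtOH and 280 ± 79.3 CPM with Dox (log2 0.26, SE 0.16, adjusted p = 0.308). All 8 markers of basal mammary epithelium were expressed, with a summed level of 8915 to 9550 CPM in vector EtOH, 4991 to 6113 CPM in vector Dox, 7968 to 9627 CPM in JUN EtOH and 4869 to 7700 CPM in JUN Dox libraries. KRT5, KRT6A and KRT17 made up most of this sum, and other markers moved apart with JUN. In the same group order EPCAM was at 146, 163, 43.0 and 42.5 CPM, and CDH1 at 129, 129, 120 and 58.7 CPM. KRT14 was at 209, 66.6, 481 and 280 CPM, and TP63 at 14.2, 5.92, 27.4 and 14.1 CPM. The 5 luminal markers, mostly KRT8 and KRT18, summed to 1267 to 1458, 1513 to 1528, 699 to 920 and 500.4 to 871 CPM in the same order, lower in both JUN groups. The 6 fibroblast markers summed to 8.57 to 12.3, 5.14 to 5.74, 19.8 to 32.9 and 14.5 to 23.5 CPM. The higher sums in both JUN groups came from LUM and DCN, at 0.732 and 5.97 CPM in vector EtOH and 6.09 and 17.7 CPM in JUN EtOH cells. COL1A1 was level between these groups (3.30 and 3.29 CPM) and PDGFRB was lower with JUN (0.616 and 0.399 CPM). COL1A2 and COL3A1 had no more than 3 counts a library. Of the 3 leukocyte markers CD3E was at 0 and PTPRC at no more than 3 counts, whereas CD68, a lysosomal protein also made outside leukocytes, had group means of 28.9, 18.2, 84.8 and 62.3 CPM. The 3 endothelial markers summed to at most 2.09 CPM. Genes of these lists move with JUN in both directions beside the WNT genes below, and their part in the results was not tested. Within JUN Dox, the correlation of a gene's deviation with its GC content ran from -0.353 in replicate 1 to 0.361 in replicate 3. Within JUN EtOH it ran from -0.197 in replicate 1 to 0.224 in replicate 3. Calls that a correction for GC content ended are therefore named below.

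Each WNT gene was compared in 4 pairwise contrasts and in the interaction, which is the change on induction in JUN cells minus the change on induction in vector cells. A gene is called where the Benjamini-Hochberg adjusted p of edgeR's quasi-likelihood test, taken over all 14775 genes, is under 0.05. On induction of YAP5SA in vector cells, 10 of the 35 tested members rose (28.6%, against 15.6% of all genes) and 5 fell (14.3%, against 14.4%), with a median log2 fold change of 0.22 beside 0.0072 for all genes. JUN without induction raised 8 members (22.9%, against 20.1%) and lowered 5 (14.3%, against 18.9%), with a median of 0.18 beside 0.00056. Induction in JUN cells raised 5 members (14.3%, against 11.2%) and lowered 6 (17.1%, against 10.3%), with a median of -0.08 beside 0.0032. JUN with induction raised 5 members (14.3%, against 18.4%) and lowered 11 (31.4%, against 17.2%), with a median of -0.03 beside 0.0030. In the interaction 4 members were called, all of them lower (11.4%, against 0.826% of all genes lower and 0.291% higher), 7 had an unadjusted p under 0.05, and DESeq2 also called 4, all lower. In the pairwise contrasts the shares furthest from those of all genes were the rises on induction in vector cells and the falls with JUN under induction, and these 2 contrasts share the vector Dox libraries. In that group replicate 1 stood apart over all genes, with a chi-square per gene of 49.3 and 39.4 against replicates 2 and 3, and 7.82 between those. JUN Dox replicates 1 and 3 differed by 41.3. Without vector Dox replicate 1 the 2 contrasts called 12 members higher and 3 lower, and 4 higher and 11 lower. Each group enters 2 pairwise contrasts, so their values for a gene are given side by side.

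**Figure D1:**
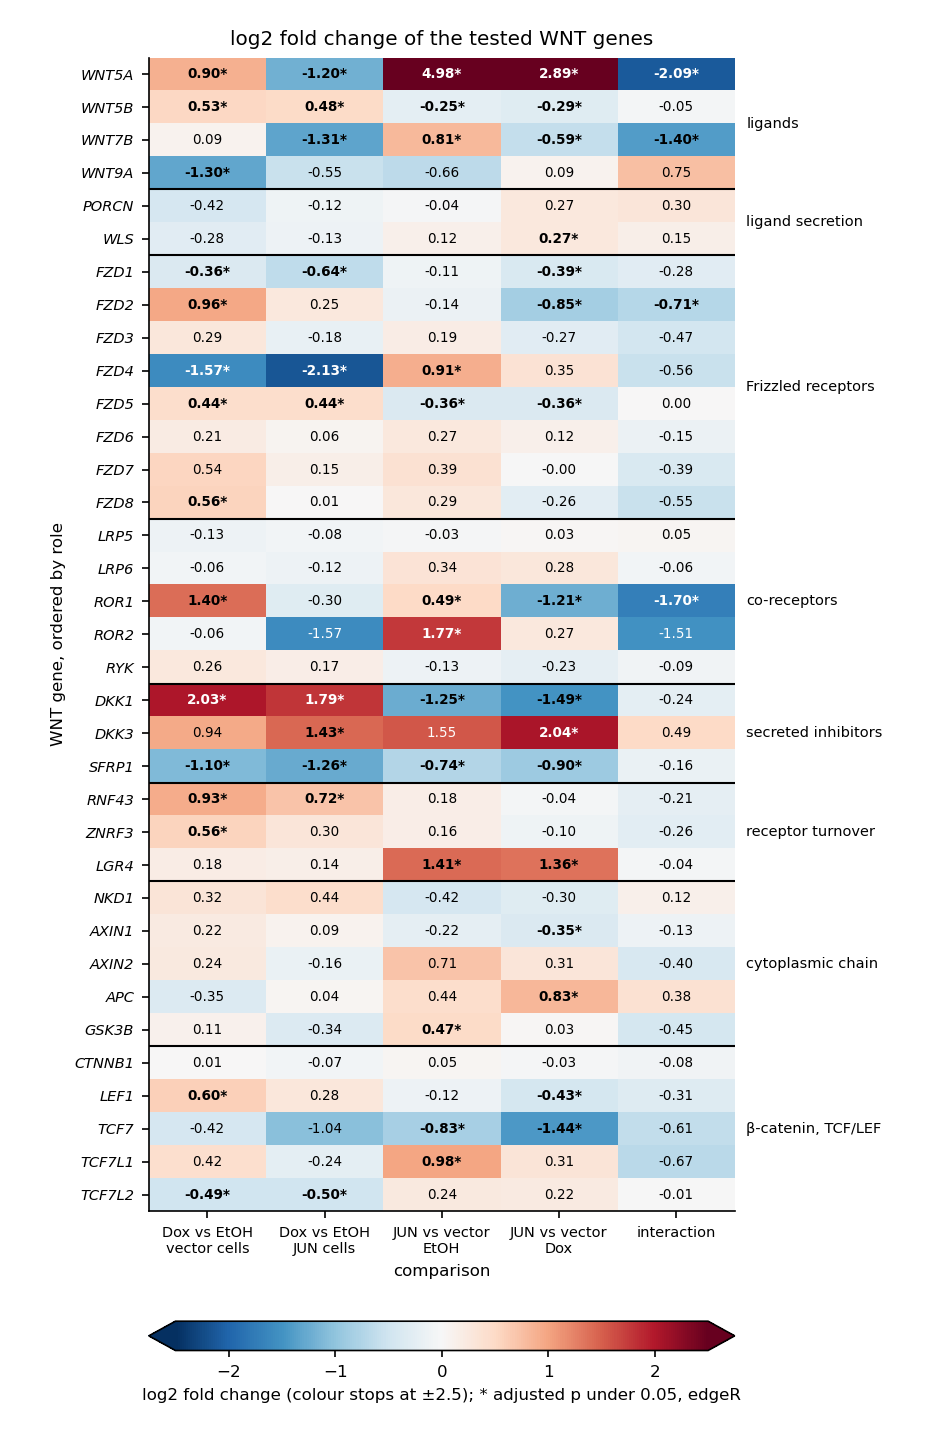
Heat map of the log2 fold change of the 35 tested WNT genes (rows, by role) in 4 pairwise comparisons and the interaction (columns), with the value printed in each cell and an asterisk where the edgeR adjusted p is under 0.05. WNT5A stands out with 4.98 and 2.89 in the JUN columns, DKK1 rises on induction and is lower with JUN, and SFRP1 is lower in all 4 pairwise comparisons.

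Per member, 10 of the 35 had no pairwise call, 9 had 1, 7 had 2, 4 had 3, and 5 were called in all 4 pairwise contrasts. Those 5 are WNT5A, WNT5B, FZD5, DKK1 and SFRP1. The same spread over all tested genes was not counted, so these numbers describe the members alone. Values in every library are given below for the 12 members that were called with a log2 fold change of at least 1 in size or in the interaction.

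Per length, the members spanned a wide range of levels. SFRP1 had the highest group mean of the 35 in vector EtOH cells, at 90.5 CPM per kb of exon. LRP5 followed at 35.0, CTNNB1 at 31.6, FZD6 at 22.2, WLS at 21.2, DKK1 at 15.2 and WNT5B at 10.7 CPM per kb, and on this scale the libraries of LRP5 and CTNNB1 overlapped, as did those of FZD6 and WLS. FZD6 was the highest of the 8 Frizzled receptors in each group (22.2 to 27.9 CPM per kb), and WNT5B was the highest ligand in vector cells. AXIN2, NKD1, ROR2 and DKK3 had group means of at most 0.181 CPM per kb. Among ligands the order depended on the group. WNT5A was at 0.684 CPM per kb in vector EtOH cells, where WNT5B was at 10.7, and at 21.7 CPM per kb in JUN EtOH cells, where WNT5B was at 9.05. In JUN Dox cells WNT5A was at 9.46 and WNT5B at 12.6 CPM per kb. FBXL14, on the other strand of the WNT5B locus, had a mean of 1057 counts against 1176 for WNT5B. The place of WNT5B among the ligands is therefore uncertain, since no strand setting is stated for the counting. The place of WLS is uncertain for the same reason, with GNG12-AS1 on its other strand at a mean of 1972 counts against 2136. Lengths are those of the union of all annotated exons of a gene, so a gene with rarely used exons is placed too low.

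**Figure D2:**
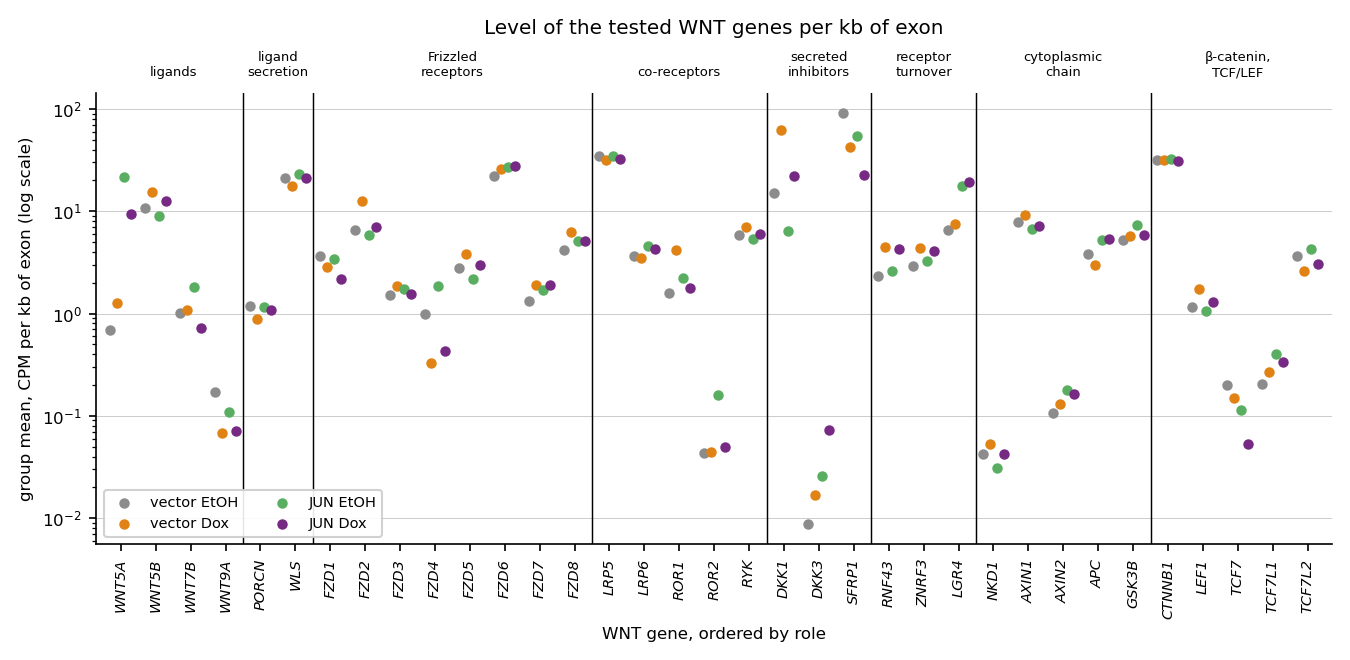
Group means of the 35 tested WNT genes in CPM per kb of exon (log axis), ordered by role, with 1 point per group of 3 libraries. SFRP1, LRP5, CTNNB1 and FZD6 lie at the top, and the points of WNT5A spread from 0.684 in vector EtOH to 21.7 in JUN EtOH cells.

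WNT5A, the main ligand of the β-catenin-independent branch, showed the largest fold change among the tested members, a rise with JUN. Its gene (Entrez 7474) lies on chr3:55499743-55524567 of hg19, minus strand. WNT5A was at 5.02, 3.74 and 5.92 CPM with EtOH and 8.54, 8.97 and 9.91 CPM with Dox in vector cells, and at 170, 166 and 130 CPM with EtOH and 69.8, 73.2 and 60.0 CPM with Dox in JUN cells. No library of 1 group overlapped with another group, and both JUN groups lay far above both vector groups. JUN without induction raised WNT5A 31.6-fold (log2 4.98, SE 0.17, edgeR adjusted p = 9.9e-11). With induction the difference between JUN and vector cells was 7.39-fold (log2 2.89, SE 0.15, adjusted p = 4.89e-09). Induction acted in opposite directions in the 2 cell populations: it raised WNT5A in vector cells (log2 0.90, SE 0.16, adjusted p = 0.000797) and lowered it in JUN cells (log2 -1.20, SE 0.14, adjusted p = 2.13e-05). The interaction was -2.09 (SE 0.21, adjusted p = 8.22e-05), and all of these calls held in each alternative tried. In bulk RNA, a change in the number of cells that express a gene and a change in the RNA per cell cannot be told apart, here and for every gene below.

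WNT5B, the closest relative of WNT5A, moved in all 4 comparisons but by much less. It was at 45.5 ± 4.37 CPM in uninduced and 65.5 ± 2.18 CPM in induced vector cells, and at 38.4 ± 0.964 CPM in uninduced and 53.5 ± 0.866 CPM in induced JUN cells. Induction raised it in vector cells (log2 0.53, SE 0.09, adjusted p = 0.000447) and in JUN cells (log2 0.48, SE 0.09, adjusted p = 0.00158). JUN lowered it, by a log2 fold change of -0.25 without induction (adjusted p = 0.0423) and -0.29 with it (adjusted p = 0.0198). Neither JUN call held under the GC correction (adjusted p = 0.255 and 0.0782). The first was also lost with no filter on low counts (0.0867), with a minimum mean of 5 CPM (0.0528) and without any 1 of 7 libraries (vector EtOH 1 and 2, vector Dox 3, JUN EtOH 1 to 3 or JUN Dox 2, adjusted p from 0.0555 to 0.193), and the second with only the compared libraries in the fit (0.0838) and without vector Dox 3 (0.0648) or JUN Dox 2 (0.0631). FBXL14 overlaps the WNT5B locus on the other strand, with 0 shared annotated exon bases and a mean of 1057 counts against 1176. It was at 39.1 and 59.9 CPM in vector EtOH and vector Dox cells, and at 34.6 and 48.9 CPM in JUN EtOH and JUN Dox cells. Its log2 fold changes were 0.61 and 0.50 on induction and -0.18 and -0.29 with JUN, close to those of WNT5B. Reads of both genes may be mixed, which was not tested.

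WNT7B, a ligand of the canonical branch that epithelial cells make, was also raised by JUN and lowered by induction in JUN cells. It was at 6.31, 4.04 and 5.16 CPM with EtOH and 4.66, 5.63 and 6.32 CPM with Dox in vector cells, and at 8.01, 7.96 and 11.4 CPM with EtOH and 2.91, 3.59 and 4.44 CPM with Dox in JUN cells. The JUN EtOH libraries were the 3 highest, while the vector EtOH and vector Dox libraries overlapped. JUN without induction raised it (log2 0.81, SE 0.21, adjusted p = 0.00701), and induction lowered it in JUN cells (log2 -1.31, SE 0.21, adjusted p = 0.000505). In vector cells the change on induction was 0.09 (95% interval -0.40 to 0.58). With induction the JUN cells were lower than vector cells (log2 -0.59, adjusted p = 0.0465), a call lost with a minimum mean of 5 CPM (0.0503), with only the compared libraries in the fit (0.0696), under the GC correction (0.071) and without any 1 of 7 libraries (vector EtOH 3, vector Dox 2 or 3, JUN EtOH 1 or 2, JUN Dox 1 or 2, adjusted p from 0.0545 to 0.153). The interaction of -1.40 (SE 0.30, adjusted p = 0.0337) did not pass without any 1 of 9 libraries (vector EtOH 2 or 3, vector Dox 2 or 3, JUN EtOH 1, 2 or 3, JUN Dox 1 or 2), where adjusted p ran from 0.054 to 0.1 and the value from -1.21 to -1.49.

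WNT9A was detected at 4 to 18 counts a library, so its values rest on little. Its mean was under 10 counts in 3 groups, and it passed the filter through vector EtOH, where it was highest. It was at 0.684, 0.549 and 0.807 CPM in uninduced and 0.218, 0.315 and 0.289 CPM in induced vector cells, and at 0.484, 0.211 and 0.610 CPM in uninduced and 0.251, 0.173 and 0.426 CPM in induced JUN cells. The vector EtOH libraries lay above the vector Dox libraries, and the JUN groups overlapped. Induction lowered it in vector cells (log2 -1.30, SE 0.46, adjusted p = 0.0435), a call lost with DESeq2 (0.0611), with no filter on low counts (0.0737), under the GC correction (0.0537) and without any 1 of 7 libraries (each of the vector EtOH and vector Dox libraries, or JUN EtOH 1, adjusted p from 0.0532 to 0.131).

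PORCN, which attaches the lipid to WNT proteins, was not called by edgeR, at group means of 5.17 to 6.93 CPM; its value of -0.42 on induction in vector cells (adjusted p = 0.0526) passed in 7 of 20 alternatives, DESeq2 among them (0.0423). WLS, the carrier that takes WNT proteins to the cell surface, was at 94.4 ± 3.32 CPM with EtOH and 78.0 ± 9.46 CPM with Dox in vector cells, and at 103 ± 4.02 CPM with EtOH and 94.2 ± 7.36 CPM with Dox in JUN cells. The single call, a rise of 0.27 with JUN under induction (adjusted p = 0.0472), was lost in 14 of 20 alternatives, among them the GC correction (0.0579) and leaving out vector Dox 1 (0.144). WLS shares 111 exon bases with GNG12-AS1 on the other strand, which had a mean of 1972 counts against 2136. The log2 fold changes of GNG12-AS1 were -0.25 and -0.11 on induction in vector and JUN cells. With JUN they were 0.12 without and 0.26 with induction, close to those of WLS. Reads of WLS and GNG12-AS1 may be mixed, which was not tested.

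**Figure D3:**
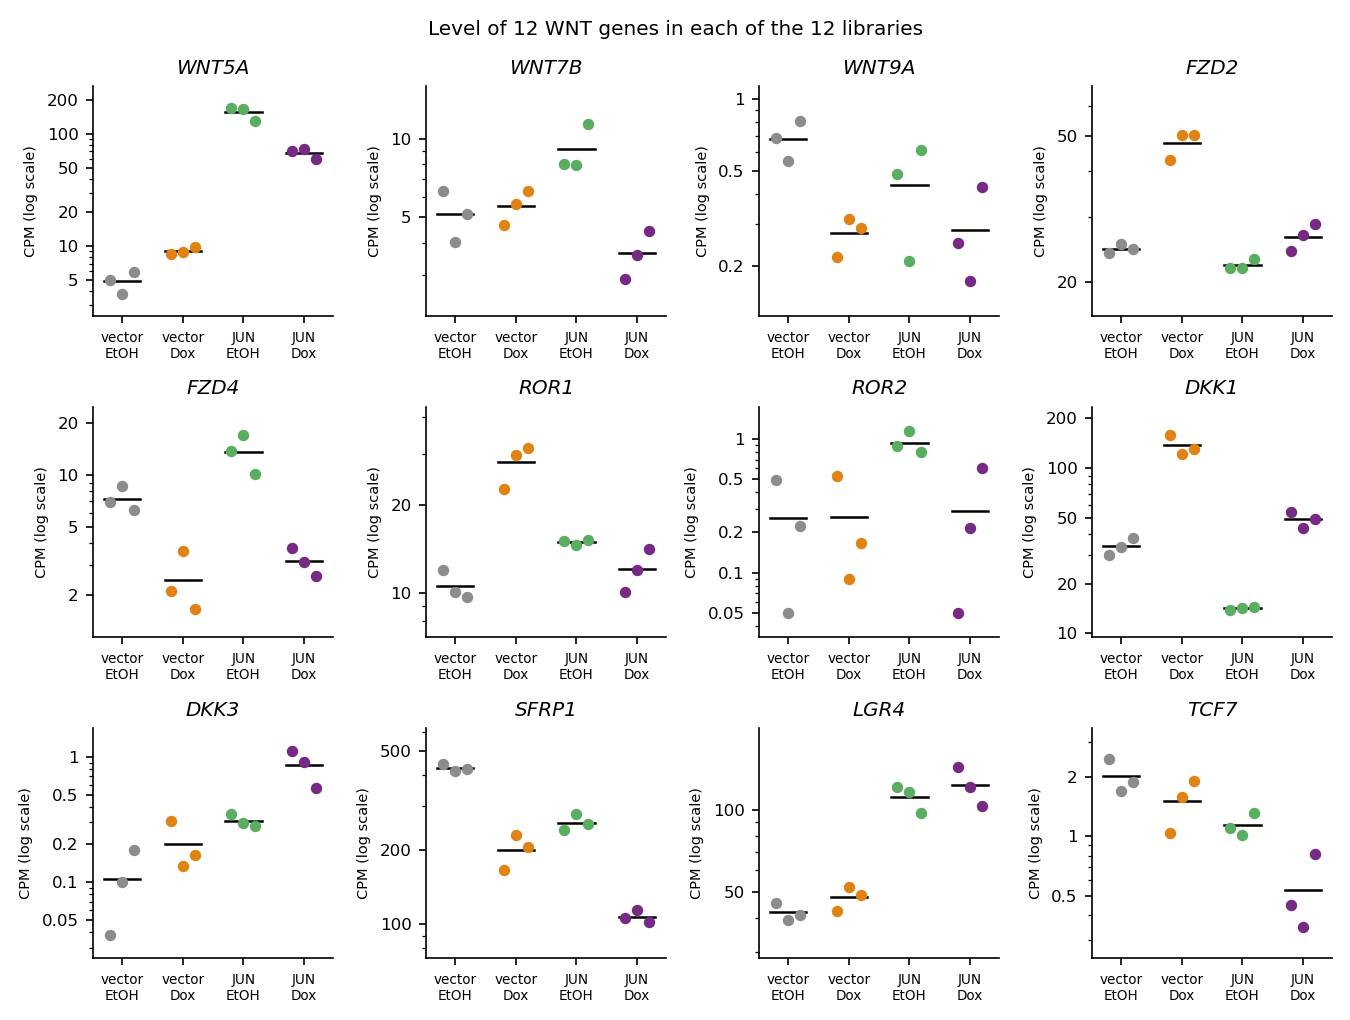
Level in CPM (log axis) of the 12 WNT genes with a value in every library, 3 points per group for the 3 libraries and a line at their mean. WNT5A and LGR4 separate JUN from vector libraries, DKK1 and FZD4 separate Dox from EtOH libraries within each cell population, and ROR1 and FZD2 are highest in vector Dox.

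Frizzled receptors went in both directions. On induction in vector cells 3 of the 8 rose (FZD2, FZD5 and FZD8) and 2 fell (FZD1 and FZD4), and in JUN cells 1 rose (FZD5) and 2 fell (FZD1 and FZD4). FZD4, a receptor best known for vessel growth in the retina, changed most. It was at 6.96, 8.58 and 6.28 CPM in uninduced and 2.09, 3.60 and 1.65 CPM in induced vector cells, and at 13.8, 17.0 and 10.1 CPM in uninduced and 3.76, 3.11 and 2.56 CPM in induced JUN cells. All Dox libraries were below all EtOH libraries, and the 2 Dox groups overlapped. Induction lowered FZD4 2.97-fold in vector cells (log2 -1.57, SE 0.27, adjusted p = 0.00044) and 4.38-fold in JUN cells (log2 -2.13, SE 0.26, adjusted p = 3.67e-05), and the interaction of -0.56 was not called (95% interval -1.41 to 0.30). JUN raised it without induction (log2 0.91, SE 0.24, adjusted p = 0.00789), and with induction the difference was 0.35 (interval -0.30 to 1.01). The exons of FZD4 share 1399 bases with PRSS23 on the other strand, which had a mean of 609 counts against 151 for FZD4. PRSS23 was also higher with JUN (log2 0.95 without and 1.18 with induction) but not on induction in vector cells (0.09, adjusted p = 0.67), and no strand setting is stated for the counting, so reads of the 2 genes may be mixed. PRSS23 was at 16.4 and 31.7 CPM in vector EtOH and JUN EtOH cells and highest in JUN Dox cells, at 39.6 CPM, where FZD4 was at 3.14 CPM.

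FZD2, a receptor used by WNT5A among others, rose on induction in vector cells but was not called in JUN cells. It was at 23.9, 25.3 and 24.5 CPM with EtOH and 42.8, 50.3 and 50.3 CPM with Dox in vector cells, and at 21.8, 21.9 and 23.1 CPM with EtOH and 24.2, 26.7 and 28.7 CPM with Dox in JUN cells. The 3 vector Dox libraries stood above the other 9. Induction raised FZD2 1.95-fold in vector cells (log2 0.96, SE 0.10, adjusted p = 4.48e-06), against a log2 fold change of 0.25 in JUN cells (SE 0.10, adjusted p = 0.088). With induction JUN cells were lower (log2 -0.85, SE 0.10, adjusted p = 1.37e-05), while without it the difference was -0.14 (adjusted p = 0.285). The interaction was -0.71 (SE 0.14, adjusted p = 0.0207). It did not pass without any 1 of 9 libraries (vector EtOH 1, 2 or 3, vector Dox 2 or 3, JUN EtOH 1, 2 or 3, JUN Dox 2), where the adjusted p ran from 0.0532 to 0.0803 and the value from -0.66 to -0.72.

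FZD5 rose on induction by 0.44 in vector cells (adjusted p = 0.0056) and by 0.44 in JUN cells (adjusted p = 0.00855), and it was lower with JUN by a log2 fold change of -0.36 both without (adjusted p = 0.016) and with induction (adjusted p = 0.0157). The JUN calls were lost without vector EtOH 1 or 2 or JUN EtOH 2 for the first (adjusted p up to 0.0513) and without vector Dox 2 or 3 (up to 0.0719) or with only the compared libraries in the fit (0.0829) for the second. FZD1 fell on induction in JUN cells (log2 -0.64, adjusted p = 0.00256). Its fall in vector cells (log2 -0.36, adjusted p = 0.0436) was lost without any 1 of 6 libraries (vector EtOH 1, 2 or 3, vector Dox 1 or 3, JUN EtOH 3, adjusted p up to 0.128), and its lower level in JUN Dox than in vector Dox cells (log2 -0.39, adjusted p = 0.0308) with only the compared libraries in the fit (0.0898) and without vector Dox 2 or JUN Dox 2 (up to 0.131). FZD8 rose on induction in vector cells (log2 0.56, adjusted p = 0.00821). FZD3, FZD6 and FZD7 had no call, with FZD6 at 90.2 ± 7.90 to 114 ± 23.6 CPM over the groups.

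ROR1, a receptor of the β-catenin-independent branch, followed the pattern of FZD2 with a larger change. It was at 11.97, 10.1 and 9.69 CPM in uninduced and 22.8, 29.8 and 31.5 CPM in induced vector cells, and at 15.0, 14.5 and 15.1 CPM in uninduced and 10.0, 11.97 and 14.1 CPM in induced JUN cells. The vector Dox libraries were the 3 highest, and the JUN EtOH libraries came next. Induction raised ROR1 2.64-fold in vector cells (log2 1.40, SE 0.15, adjusted p = 5.72e-06), whereas in JUN cells the log2 fold change was -0.30 (SE 0.15, adjusted p = 0.179). The interaction of -1.70 (SE 0.21, adjusted p = 0.000488) held in all 19 alternatives. JUN cells were lower under induction (log2 -1.21, SE 0.15, adjusted p = 1.93e-05). Without induction they were higher (log2 0.49, SE 0.15, adjusted p = 0.0189), a call lost without vector EtOH 2 (0.0651), vector EtOH 3 (0.0739) or JUN EtOH 1 (0.0556).

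ROR2, the relative of ROR1, was scarce, at 1 to 27 counts a library. Its mean was under 10 counts in 3 groups, and it passed the filter through JUN EtOH, where it was highest. It was at 0.494, 0.0499 and 0.224 CPM with EtOH and 0.523, 0.0901 and 0.165 CPM with Dox in vector cells, and at 0.880, 1.14 and 0.798 CPM with EtOH and 0.0501, 0.216 and 0.604 CPM with Dox in JUN cells. The JUN EtOH libraries were the 3 highest. JUN without induction raised it (log2 1.77, SE 0.66, adjusted p = 0.0458), but the call was lost without any 1 of 7 libraries (vector EtOH 2 or 3, vector Dox 3, JUN EtOH 1, 2 or 3, JUN Dox 2, adjusted p from 0.0549 to 0.149). The co-receptors of the canonical branch, LRP5 and LRP6, and the receptor RYK had no call. LRP5 was at 198 ± 43.6 to 216 ± 15.5 CPM and LRP6 at 36.2 ± 9.91 to 47.6 ± 5.13 CPM over the groups, with the wide spread in vector Dox coming from replicate 1, the lowest library for both genes. BCL2L14 overlaps LRP6 on the other strand, with 0 shared annotated exon bases and a mean of 934 counts against 951 for LRP6. Reads of these genes may be mixed, which was not tested.

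Of the secreted inhibitors, DKK1 and SFRP1 were called in every pairwise comparison. DKK1, which blocks LRP5 and LRP6, was at 30.0, 33.3 and 37.8 CPM in uninduced and 160, 122 and 130 CPM in induced vector cells, and at 13.9, 14.3 and 14.4 CPM in uninduced and 54.4, 43.2 and 49.3 CPM in induced JUN cells. The 4 groups did not overlap. Induction raised DKK1 4.08-fold in vector cells (log2 2.03, SE 0.13, adjusted p = 2.37e-08) and 3.45-fold in JUN cells (log2 1.79, SE 0.13, adjusted p = 3.13e-07). JUN lowered it by a log2 fold change of -1.25 without induction (SE 0.13, adjusted p = 4.24e-06) and of -1.49 with it (SE 0.12, adjusted p = 4.21e-07). The interaction was -0.24 (95% interval -0.65 to 0.16, adjusted p = 0.818). Its gene (Entrez 22943) lies on chr10:54074041-54077802 of hg19, plus strand.

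SFRP1, which binds WNT proteins outside the cell, fell with YAP5SA and with JUN. It was at 444, 418 and 423 CPM with EtOH and 166, 230 and 205 CPM with Dox in vector cells, and at 239, 278 and 254 CPM with EtOH and 106, 114 and 102 CPM with Dox in JUN cells. The vector EtOH libraries were the 3 highest and the JUN Dox libraries the 3 lowest of the 12, and no groups overlapped. Induction lowered it by a log2 fold change of -1.10 in vector cells (SE 0.12, adjusted p = 6.08e-06) and of -1.26 in JUN cells (SE 0.12, adjusted p = 3.28e-06). JUN lowered it by -0.74 without induction (SE 0.12, adjusted p = 0.000215) and by -0.90 with it (SE 0.12, adjusted p = 3.85e-05), with an interaction of -0.16 (interval -0.54 to 0.22). The calls of DKK1 and SFRP1 held in each alternative tried. Per length SFRP1 went from 90.5 CPM per kb in vector EtOH to 22.7 CPM per kb in JUN Dox cells, where DKK1 was at 22.0.

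DKK3, a divergent member of the DKK family, was near the limit of detection in vector cells. It was at 0.0380, 0.0998 and 0.179 CPM (1 to 4 counts) in uninduced and 0.305, 0.135 and 0.165 CPM (3 to 7 counts) in induced vector cells, and at 0.352, 0.295 and 0.281 CPM (6 to 8 counts) in uninduced and 1.10, 0.907 and 0.568 CPM (16 to 22 counts) in induced JUN cells. The JUN Dox libraries were the 3 highest. DKK3 had a mean under 10 counts in the other 3 groups and passed the filter on low counts only through JUN Dox. Both of its calls compare that group with one where it was scarce, so they rest on how it entered the test. Under induction JUN cells were higher (log2 2.04, SE 0.47, adjusted p = 0.00368), and induction raised it in JUN cells (log2 1.43, SE 0.43, adjusted p = 0.0286), a call lost with no filter on low counts (0.065) and without any 1 of 5 libraries (each JUN EtOH library, JUN Dox 1 or 2, adjusted p from 0.069 to 0.0951). Exons of DKK3 share 5681 bases with USP47 on the other strand, which had a mean of 1512 counts against 8.42 for DKK3, so reads of the 2 genes may be mixed.

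Promoter sequence is shown for 3 members: WNT5A, with the largest change by JUN, DKK1, with the largest change on induction in vector cells, and RNF43, which holds the only match to the AP-1 motif among members. RefSeq windows on GRCh38.p14, from 250 bases before to 50 after a start, were at hand for 28 of the 39 members (37 windows). The motifs searched on both strands were TGANTCA (AP-1, the site of JUN and FOS dimers), TGACGTCA (CRE), GGAATG (TEAD, the partner of YAP) and CTTTGAA (TCF/LEF), which do not overlap in the windows printed. Of 35116 promoters listed, 7.71% held the first, 1.85% the second, 14.0% the third and 4.43% the fourth. Among the 37 windows of the 28 members 1 held the first (RNF43), 0 the second, 3 the third (APC, DKK1 and RNF43) and 1 the fourth (DKK1). Capitals mark a match, and CATTCC is GGAATG read on the other strand.
WNT5A, upstream start, chr3:55487257-55487556, minus strand: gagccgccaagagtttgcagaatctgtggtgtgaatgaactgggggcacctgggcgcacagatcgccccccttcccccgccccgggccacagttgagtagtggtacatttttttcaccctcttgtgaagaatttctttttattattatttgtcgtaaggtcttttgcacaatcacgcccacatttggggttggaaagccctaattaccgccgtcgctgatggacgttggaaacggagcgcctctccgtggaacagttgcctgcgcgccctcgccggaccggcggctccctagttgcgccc
WNT5A, downstream start, chr3:55481349-55481648, minus strand: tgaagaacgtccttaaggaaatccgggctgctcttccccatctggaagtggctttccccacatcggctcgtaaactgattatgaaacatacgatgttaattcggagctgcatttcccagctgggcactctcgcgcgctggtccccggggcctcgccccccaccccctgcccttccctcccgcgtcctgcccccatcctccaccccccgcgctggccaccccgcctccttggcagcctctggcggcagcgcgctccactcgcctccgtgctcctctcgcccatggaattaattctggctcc
DKK1, chr10:52314031-52314330, plus strand: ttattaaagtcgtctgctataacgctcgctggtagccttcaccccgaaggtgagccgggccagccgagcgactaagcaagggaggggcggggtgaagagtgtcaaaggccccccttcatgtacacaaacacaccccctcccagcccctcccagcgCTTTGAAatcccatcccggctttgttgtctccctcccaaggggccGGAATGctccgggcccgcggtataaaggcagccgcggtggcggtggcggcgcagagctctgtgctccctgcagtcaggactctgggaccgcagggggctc
RNF43, downstream start, chr17:58402672-58402971, minus strand: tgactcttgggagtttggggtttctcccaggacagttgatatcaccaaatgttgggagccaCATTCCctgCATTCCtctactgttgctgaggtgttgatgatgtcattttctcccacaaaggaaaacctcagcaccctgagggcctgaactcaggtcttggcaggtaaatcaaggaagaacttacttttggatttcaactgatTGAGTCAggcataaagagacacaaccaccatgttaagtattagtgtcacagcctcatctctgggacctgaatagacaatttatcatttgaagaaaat
Neither WNT5A window held any of the 4 motifs. In the DKK1 window the TCF/LEF letters begin 95 bases and the TEAD letters 50 bases before the start. In the RNF43 window the TEAD letters begin 189 and 180 bases and the AP-1 letters 47 bases before the start. A match is a run of letters and no measure of binding, and its absence covers this window alone.

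Genes that set how long Frizzled receptors stay at the surface divided into a YAP5SA and a JUN group. RNF43 and ZNRF3 are ubiquitin ligases that remove Frizzled receptors, and LGR4 is the R-spondin receptor that restrains them. RNF43 rose on induction in vector cells, from 14.7 ± 1.49 to 28.1 ± 7.15 CPM (log2 0.93, SE 0.16, adjusted p = 0.000392), and in JUN cells, from 16.6 ± 0.899 to 27.3 ± 2.49 CPM (log2 0.72, SE 0.16, adjusted p = 0.00418). With JUN its log2 fold change was 0.18 without and -0.04 with induction, neither called. RNF43 shares 345 exon bases with TSPOAP1-AS1 on the other strand, at a mean of 816 counts against 501. ZNRF3 rose in vector cells, from 20.6 ± 1.19 to 30.4 ± 4.83 CPM (log2 0.56, SE 0.11, adjusted p = 0.00177), and had a log2 fold change of 0.30 in JUN cells that was not called.

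LGR4 moved with JUN alone among the calls. It was at 45.6, 39.6 and 41.1 CPM with EtOH and 42.5, 52.2 and 48.6 CPM with Dox in vector cells, and at 121, 116 and 97.8 CPM with EtOH and 144, 121 and 104 CPM with Dox in JUN cells. Every JUN library was above every vector library, and within each cell population EtOH and Dox libraries overlapped. JUN raised LGR4 2.65-fold without induction (log2 1.41, SE 0.13, adjusted p = 1.28e-06) and 2.57-fold with it (log2 1.36, SE 0.13, adjusted p = 1.67e-06). On induction the log2 fold change was 0.18 in vector cells (95% interval -0.12 to 0.48) and 0.14 in JUN cells (-0.15 to 0.43). The JUN calls held in each alternative.

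For the cytoplasmic chain, 0 of the 5 genes (APC, AXIN1, AXIN2, GSK3B and NKD1) were called on induction in vector or JUN cells by edgeR or by DESeq2. The list is too short to set apart from the share of all genes called (15.6% higher and 14.4% lower in vector cells, 11.2% and 10.3% in JUN cells), and 1 had an unadjusted p under 0.05 in each (AXIN1 at 0.22 in vector cells and GSK3B at -0.34 in JUN cells). With JUN and no induction GSK3B, a kinase of the destruction complex, rose (log2 0.47, SE 0.13, adjusted p = 0.0126, from 94.1 ± 5.49 to 131 ± 4.35 CPM). With JUN under induction APC, the scaffold of that complex, was higher (log2 0.83, SE 0.18, adjusted p = 0.00299) and AXIN1, its other scaffold, lower (log2 -0.35, SE 0.09, adjusted p = 0.0077). APC was at 25.8, 50.6 and 46.1 CPM in vector Dox and at 74.2, 71.9 and 71.3 CPM in JUN Dox libraries, with vector Dox replicate 1 far below the others, and its call held without that library. The AXIN1 call was lost under the GC correction (adjusted p = 0.0835) and with only the compared libraries in the fit (0.0502). AXIN2, a scaffold that is itself a standard target of β-catenin, was scarce at 0.557 ± 0.353, 0.676 ± 0.259, 0.939 ± 0.149 and 0.851 ± 0.313 CPM over the groups and had no call. Its log2 fold change had 95% intervals of -0.87 to 1.34 on induction in vector cells and -0.35 to 1.77 with JUN, so changes of that size were not detectable at this depth. NKD1, an inhibitor induced by WNT signals, had no call either.

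CTNNB1, the gene of β-catenin, was level, at 372 ± 12.4, 375 ± 35.8, 385 ± 33.7 and 367 ± 41.8 CPM. Its log2 fold change lay between -0.07 and 0.05 in the pairwise comparisons, and the 95% intervals reached no further than -0.33 and 0.32. Among the TCF and LEF factors TCF7L2 fell on induction in vector cells (log2 -0.49, SE 0.12, adjusted p = 0.00651) and in JUN cells (log2 -0.50, SE 0.12, adjusted p = 0.00725), from 24.5 ± 1.05 to 17.5 ± 1.47 and from 28.9 ± 1.70 to 20.4 ± 3.19 CPM. LEF1 rose on induction in vector cells (log2 0.60, SE 0.14, adjusted p = 0.00449, from 6.21 ± 0.262 to 9.40 ± 0.922 CPM). It was lower with JUN under induction (log2 -0.43, adjusted p = 0.0251), a call lost with only the compared libraries in the fit (0.0896) and without vector Dox 2 or 3 or JUN Dox 2 or 3 (adjusted p from 0.0633 to 0.0928). LEF1 shares 279 exon bases with LEF1-AS1 on the other strand, which had a mean of 54.3 counts against 163. TCF7L1 was higher with JUN without induction (log2 0.98, adjusted p = 0.0242), a call lost without vector EtOH 1 or 3 or JUN EtOH 2 or 3 (0.0672 to 0.0909), at 0.722 to 2.06 CPM over the libraries.

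TCF7 was lower with JUN. It was at 2.47, 1.70 and 1.88 CPM in uninduced and 1.05, 1.58 and 1.90 CPM in induced vector cells, and at 1.10, 1.01 and 1.31 CPM in uninduced and 0.451, 0.346 and 0.817 CPM in induced JUN cells. The JUN Dox libraries were the 3 lowest of the 12. With induction JUN cells were lower by a log2 fold change of -1.44 (SE 0.35, adjusted p = 0.00518). Without induction the value was -0.83 (SE 0.31, adjusted p = 0.0459), and this call was lost with no filter on low counts (0.053), under the GC correction (0.0553) and without any 1 of 7 libraries (each vector EtOH and JUN EtOH library, or vector Dox 2, adjusted p from 0.0548 to 0.168). Induction in JUN cells gave -1.04 (adjusted p = 0.0525). TCF7 shares 210 exon bases with SKP1 on the other strand, which had a mean of 3945 counts against 30.3 and no call in any comparison, so its level is uncertain.

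Set side by side, the 2 inductions, which share no library, called 15 members in vector and 11 in JUN cells. Of these, 8 were called in both and in the same direction (53.3% of the first list and 72.7% of the second): WNT5B, FZD5, DKK1 and RNF43 rose, and FZD1, FZD4, SFRP1 and TCF7L2 fell. Over all tested genes the shares were 54.0% and 75.8%, close to those of the members. WNT5A was called in opposite directions, as were 11 of all genes. In the 2 JUN comparisons, which share no library either, 13 and 16 members were called, 7 of them in the same direction (53.8% and 43.8%): WNT5A and LGR4 higher and WNT5B, FZD5, DKK1, SFRP1 and TCF7 lower. Over all tested genes these shares were 67.1% and 73.4%. WNT7B and ROR1 were higher with JUN without induction and lower with it. They are 2 of 30 genes called in opposite directions, whichever way round. The 4 members with a called interaction were WNT5A, WNT7B, FZD2 and ROR1. In all 4 the change on induction was lower in JUN cells than in vector cells, with interactions from -0.71 to -2.09.

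**Figure D4:**
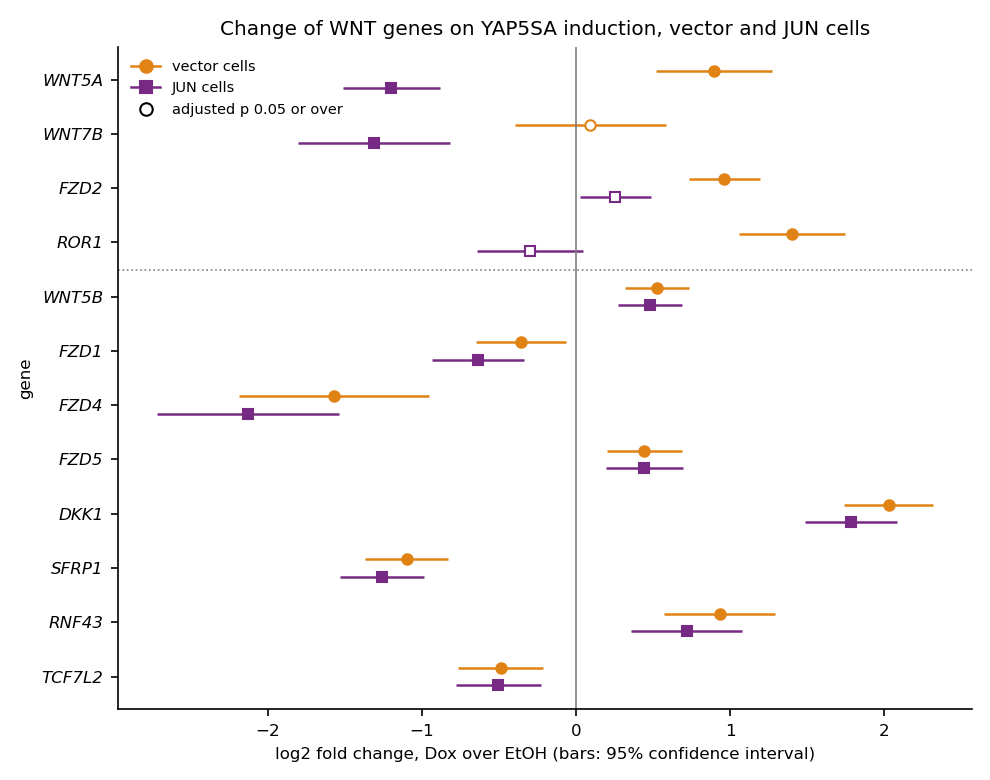
Log2 fold change on YAP5SA induction (Dox over EtOH, 95% confidence interval) in vector cells (circles) and JUN cells (squares) for the 4 WNT genes with a called interaction (above the dotted line) and the 8 called in the same direction in both; open symbols are not called. The pairs of symbols lie apart above the line, as for WNT5A at 0.90 and -1.20, and close together below it, as for DKK1 at 2.03 and 1.79.

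Beyond the 39 members, 67 other genes of WNT signalling were listed, of which 42 were tested. On induction 4 rose (9.52%, against 15.6% of all genes) and 13 fell (31.0%, against 14.4%) in vector cells, and 2 rose (4.76%, against 11.2%) and 13 fell (31.0%, against 10.3%) in JUN cells. With JUN 12 rose (28.6%) and 7 fell (16.7%), without and with induction alike, against 20.1% and 18.9% of all genes without and 18.4% and 17.2% with induction. The medians in these 4 comparisons were -0.12, -0.14, 0.17 and 0.18. KREMEN2, a receptor for DKK1, fell with JUN without induction, from 6.72 ± 1.40 to 1.73 ± 0.733 CPM (log2 -1.96, SE 0.29, adjusted p = 0.000124), and under induction (log2 -1.32, SE 0.30, adjusted p = 0.004). KREMEN1, its relative on the list, went the other way. It was at 14.3 ± 1.16 CPM in vector EtOH and 30.3 ± 1.86 CPM in JUN EtOH cells, and at 9.89 ± 1.13 CPM in vector Dox and 20.7 ± 1.38 CPM in JUN Dox cells. PRICKLE2, of the planar polarity branch, rose with JUN, from 3.70 ± 0.837 to 9.52 ± 1.83 CPM (log2 1.35, SE 0.20, adjusted p = 0.00012), and fell on induction in vector cells (log2 -1.35, SE 0.23, adjusted p = 0.000486) and JUN cells (log2 -1.26, SE 0.20, adjusted p = 0.000386). Its relative PRICKLE1 went the other way with JUN, at 15.4 ± 1.87 CPM in vector EtOH and 9.09 ± 0.889 CPM in JUN EtOH cells. VANGL2, of the same branch, fell on induction in vector cells (log2 -1.53, SE 0.46, adjusted p = 0.0212), a call lost without vector EtOH 1 (0.0683), vector Dox 1 (0.0694) or vector Dox 3 (0.0909). TLE2, a co-repressor of TCF factors at 1 to 24 counts, was lower with JUN (log2 -1.84 without and -1.74 with induction, adjusted p = 0.0119 and 0.0161), and these calls were lost without vector EtOH 1 or JUN EtOH 1 (up to 0.0667) and without vector Dox 3 or JUN Dox 1 (up to 0.058). Its relatives on the list are far more abundant and did not move as 1. In vector EtOH and JUN EtOH cells TLE1 was at 27.1 and 41.7 CPM, TLE3 at 30.7 and 23.0 CPM and TLE4 at 10.3 and 9.97 CPM.

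Of 14 listed targets of β-catenin outside the members, 11 were tested. On induction 4 rose (36.4%) and 2 fell (18.2%) in vector cells, and 3 rose (27.3%) and 2 fell (18.2%) in JUN cells. With JUN 2 rose (18.2%) and 3 fell (27.3%) without induction, and 3 rose (27.3%) and 5 fell (45.5%) with it. The shares of all genes are those given for the other WNT genes, and with 11 genes each call is 9.09% of the list. The medians of the 11 were 0.14 and 0.23 on induction in vector and JUN cells and 0.06 and -0.46 with JUN without and with induction. CCND1, the gene of cyclin D1, went from 242 ± 30.9 to 664 ± 75.2 CPM on induction in vector cells (log2 1.46, SE 0.12, adjusted p = 6.23e-07) and from 222 ± 15.9 to 306 ± 22.1 CPM in JUN cells (log2 0.46, SE 0.12, adjusted p = 0.0141). The latter call was lost without JUN EtOH 2 (0.0758) or JUN Dox 2 (0.0599), and the interaction was -0.99 (adjusted p = 0.00879). EDN1, the endothelin 1 gene, rose in vector cells, from 3.73 ± 1.09 to 14.6 ± 1.68 CPM (log2 1.98, SE 0.18, adjusted p = 1.16e-06), and in JUN cells, from 4.38 ± 0.457 to 14.4 ± 1.36 CPM (log2 1.71, SE 0.18, adjusted p = 7.88e-06). BMP4, a growth factor, rose in vector cells (log2 2.19, SE 0.34, adjusted p = 0.000207), from 0.486 ± 0.169 to 2.27 ± 0.450 CPM, against 0.23 in JUN cells (adjusted p = 0.731). Its interaction of -1.96 was not called (adjusted p = 0.109). SOX9, a factor of progenitor cells, was lower with JUN, at 1.11 ± 0.201 against 4.52 ± 0.315 CPM without induction (log2 -2.03, SE 0.20, adjusted p = 2.69e-06) and at 2.11 ± 0.188 against 5.69 ± 0.813 CPM with it (log2 -1.42, SE 0.18, adjusted p = 3.21e-05).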

How the data were processed

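RNA-seq was made from 12 MCF10A libraries in 4 groups of 3, grouped by their labels, with poly(A) RNA read single-end. The authors removed adapters with cutadapt (4.2 in the submitters' processing notes), aligned reads to hg19 with Bowtie2 (2.3.5.1) and counted overlaps per Entrez gene in R, with no strand or annotation stated, and deposited raw counts with no molecular identifiers. The study's methods describe replicates as biological unless stated otherwise, and p-values measure the spread between these libraries. Symbols were found for 99.4% of the IDs and positions in GENCODE on GRCh37. Members and lists were chosen with earlier results of these data known.

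Counts were tested with edgeR 4.0.16 in R 4.3.3 (TMM, filterByExpr with a minimum count of 10, robust quasi-likelihood fit by group over all 12 libraries with 8 residual degrees of freedom, Benjamini-Hochberg over 14775 genes, calls under 0.05). The biological coefficient of variation was 12.5%. The model was tested on simulated data. Members called with a log2 fold change of at least 1 in size or in the interaction were given in every library. Of each list up to 4 called genes with the largest change were named. KREMEN1, PRICKLE1, TLE1, TLE3 and TLE4 were added beside their named relatives. The alternatives were other size factors, filters, DESeq2 1.42.0, a replicate block, fits on the compared groups only, each library left out, and, chosen after seeing the data, a GC correction. The 95% intervals come from the same fit and include the spread between libraries, while detection floors cover counting error only.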

Additional observations from a re-analysis of the deposited data

Results flagged for a closer look

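The change on YAP5SA induction differed between JUN and vector cells, by edgeR's test of the interaction, for 4 members. These were WNT5A, with an interaction of -2.09, ROR1 with -1.70, WNT7B with -1.40 and FZD2 with -0.71 on the log2 scale. The same test also passed for CCND1 (-0.99) and for DAAM1, a formin of the planar polarity branch (-0.92, adjusted p = 0.0207). DAAM1 was at 13.3 ± 1.91 CPM with EtOH and 18.3 ± 1.89 CPM with Dox in vector cells, and at 21.9 ± 2.09 and 15.9 ± 1.28 CPM in JUN cells. Its call was lost without any 1 of 7 libraries (vector EtOH 2 or 3, vector Dox 3, JUN EtOH 1 or 2, JUN Dox 2 or 3), where the adjusted p ran from 0.0539 to 0.0858.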

How the results depend on the processing

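Of 59 calls of members, 41 held in all alternatives and none changed direction, while 26 of 116 uncalled values were called in at least 1 alternative and 38 changed sign in at least 1. Leaving out 1 library gave 13 to 17 members called on induction in vector cells (main value 15), 8 to 17 for JUN without induction (13, with 8 without vector EtOH replicate 2), 10 to 15 on induction in JUN cells (11), 11 to 16 for JUN with induction (16) and 2 to 5 in the interaction (4). The 2 members left in the interaction, WNT5A and ROR1, remained without vector EtOH replicate 2 or 3, vector Dox replicate 2 or 3, any JUN EtOH replicate or JUN Dox replicate 2. With only the libraries of the comparison in the fit, JUN with induction called 9 members, all among the 16. The upper-quartile factors moved the median of all genes by at most 0.048. The GC correction ended 7 member calls and added 7. Same-numbered libraries of different groups deviated together in some pairs only, with r from -0.258 to 0.466 (median 0.0879) and 7 of 18 pairs over 0.1. The highest were between JUN EtOH and JUN Dox, at 0.466 for replicate 3 and 0.283 for replicate 1, against 0.0118 for replicate 2. Of the 12 libraries 7 were closest to their own number. The numbers were not taken as pairs in the main fit. A replicate block gave 15, 12, 16 and 4 members called under induction of vector cells, induction of JUN cells, JUN with Dox and the interaction, and 12 for JUN without Dox, ending the calls of WNT5B for JUN without Dox (adjusted p = 0.0512) and of FZD1 under induction of vector cells (0.0563) and adding 2. Low counts limit WNT9A, ROR2 and DKK3, each with a mean under 10 counts in 3 groups. Each passed the filter through the group where it was highest (vector EtOH, JUN EtOH and JUN Dox in turn). All 3 are counted in the shares of members called.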
